A study of Homo sapiens with 5 samples.

Results

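The genes described here are 51 genes of mitosis and the G2/M phase of the cell cycle, taken as a named list and matched by symbol to 36601 features. All 51 were found, each as 1 feature, and all 51 were detected in every library. The cells were MDA-MB-468, a long-established line from a human breast cancer of the triple-negative kind, and their RNA was counted cell by cell in 5 libraries, 1 for each group. The groups were untreated cells at 0 h and at 72 h, cells given PF0517515 for 6 h or for 72 h, and recovery cells. The recovery cells were taken after treatment, with their time given as 72 h. PF0517515 is called the inhibitor below, and by the study's title it acts on acetyl-CoA carboxylase (ACC), whose product malonyl-CoA feeds fatty acid synthesis. The labels give no dose, no vehicle and no length of recovery, and there was no untreated library at 6 h. A single library for each group leaves no replicate spread to compare with, so tests are absent and every value describes these libraries.

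Libraries held 1927 to 3705 kept cells and 85376888 to 114350566 unique molecular identifiers (UMIs, each counted as 1 captured RNA molecule), with medians of 26540 to 41573 UMIs per cell. The 72 h inhibitor library had the fewest cells and the deepest ones. Between 7 and 16 barcodes of each library were also present in another, and doublets were not removed. Epithelial genes of the line were present in all 5 libraries, with KRT18 (a simple-epithelium keratin) at 2040 to 3475 UMIs scaled to a library total of 1e6 (CPM) and EGFR, which this line carries at high copy, at 1428 to 4397 CPM. Of 10 markers of blood, endothelial and stromal cells, 0 reached 10 CPM, COL1A2 had 0 UMIs in every library, and the 10 together came to 4.49 to 10.8 CPM. Of the hormone receptor genes ESR1 and PGR, 1 reached 10 CPM. Together they came to 9.56 CPM at 0 h untreated, 12.5 after 6 h of PF0517515, 4.39 after 72 h, 3.46 in recovery and 10.1 at 72 h untreated. The line was sequenced as a mixture of cycling and non-cycling cells, so in a library's sum fewer G2/M cells and less of these RNAs per cell cannot be told apart.

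Cells enter mitosis when cyclin B switches on the kinase CDK1, after which Aurora and Polo-like kinases, kinesins and kinetochore proteins build the spindle and attach chromosomes to it. The anaphase-promoting complex (APC/C), a ubiquitin ligase, then marks cyclin B and securin for destruction so that chromosomes separate and the cell divides. Most of these genes are transcribed in late S and G2 phase through MYB-MuvB and FOXM1, which act at short promoter elements called CHR (cell cycle genes homology region), commonly next to CCAAT boxes bound by NF-Y, and their summed RNA is widely used to mark dividing cells in tumors.

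The promoters of the 51 genes shared these letters more often than promoters at large. RefSeq windows of 300 bases (250 before to 50 after the start site, GRCh38.p14) were available for 42 of the 51. The CHR letters TTTGAA or TTCGAA, read on both strands, stood in 32 of the 42 windows (76.2%), against 16.6% of 27305 windows of all genes. Within 50 bases of the start site the shares were 57.1% of the 42 and 5.05% of all. CCAAT, also read on both strands, stood in 73.8% of the 42 and 35.7% of all, and CHR letters together with CCAAT in 64.3% and 6.58%. A second or further CCAAT was present in 54.8% of the 42 against 11.3% of all windows. The match is a description of letters and not of binding.

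Cores of 7 windows are shown because most place CHR letters at nearly the same distance from the start in genes that responded differently. Each runs from 110 bases before to 10 bases after the start, 5′ to 3′ on the gene's strand, with CHR letters and CCAAT in capitals (TTCAAA and ATTGG are these letters on the other strand). CCNB2 (cyclin B2, chr15:59105036-59105155, plus strand), PLK1 (Polo-like kinase, chr16:23678779-23678898, plus strand), MKI67 (the Ki-67 protein that coats mitotic chromosomes, chr10:128126414-128126533, minus strand) and KIF11 (the Eg5 kinesin of the bipolar spindle, chr10:92593020-92593139, plus strand) were clearly lower after 72 h of inhibitor. CKS1B (chr1:154974571-154974690, plus strand) and CKS2 (chr9:89311085-89311204, plus strand), which encode small subunits of cyclin-dependent kinase complexes, were only slightly lower. RANGAP1 (chr22:41302360-41302479, minus strand), the Ran GTPase-activating protein that also sits at kinetochores, was slightly higher, and its window held neither set of letters. The RefSeq start used for RANGAP1 lies 16118 bases from the gene start in GENCODE 29, and that of PLK1 1233 bases, so these windows belong to the RefSeq starts only. Over 1000 bases apart were the starts of 4 of the 42 members, the others being CENPA and NUF2.
CCNB2: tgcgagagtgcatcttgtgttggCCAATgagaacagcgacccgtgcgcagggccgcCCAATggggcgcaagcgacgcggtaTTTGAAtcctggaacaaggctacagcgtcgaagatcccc
PLK1: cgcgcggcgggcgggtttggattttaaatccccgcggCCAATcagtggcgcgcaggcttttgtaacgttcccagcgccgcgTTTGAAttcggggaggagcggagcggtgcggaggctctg
MKI67: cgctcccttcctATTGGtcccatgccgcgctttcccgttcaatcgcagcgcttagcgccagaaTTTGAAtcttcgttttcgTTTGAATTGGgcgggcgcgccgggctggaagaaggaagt
KIF11: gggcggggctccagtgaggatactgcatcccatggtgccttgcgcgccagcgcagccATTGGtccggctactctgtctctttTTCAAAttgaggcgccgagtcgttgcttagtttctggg
CKS1B: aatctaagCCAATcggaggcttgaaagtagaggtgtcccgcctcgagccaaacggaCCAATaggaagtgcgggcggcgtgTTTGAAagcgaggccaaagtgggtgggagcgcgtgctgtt
CKS2: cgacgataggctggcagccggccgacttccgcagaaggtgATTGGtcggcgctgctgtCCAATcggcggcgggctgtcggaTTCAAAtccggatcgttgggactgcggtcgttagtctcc
RANGAP1: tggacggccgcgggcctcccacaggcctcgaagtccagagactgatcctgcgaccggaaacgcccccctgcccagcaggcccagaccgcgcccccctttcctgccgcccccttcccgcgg

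In CCNB2, PLK1, MKI67 and CKS2 the CHR letters nearest the start began 29 bases before it, in CKS1B 30 and in KIF11 28. In MKI67 these letters share a base with an ATTGG. The nearest CCAAT, on either strand, was less alike in place. It began 52 to 54 bases before the start in CCNB2, KIF11, CKS1B and CKS2, 73 in PLK1 and 24 in MKI67. In all, 10 of the 42 windows had CHR letters beginning 26 to 30 bases before the start, and in 8 these were the nearest ones. The share of all windows was not counted for this range. The 27 members with both sets of letters had a median log2 ratio of -1.11 for 72 h of inhibitor over 72 h untreated, ranging from -1.69 to -0.06, and the 15 with 1 set or neither had a median of -0.95, ranging from -1.67 to 0.16. The 6 members with neither had a median of -0.77, ranging from -1.63 to 0.16. These ranges overlap over most of their length, and no test was made between them.

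After 72 h of inhibitor, 50 of the 51 genes had a lower level than in untreated cells of the same time point. Of all genes at 10 CPM or more in either library, 61.0% were lower. The 51 together made up 0.276% of all UMIs at 72 h of inhibitor against 0.511% at 72 h untreated. The median share of mitochondrial UMIs per cell was 3.31% at 72 h of inhibitor against 6.17% at 72 h untreated, and with cells limited to at most 10% the count of members more than 1.5-fold lower was 41, beside the 40 given below. The summed level was 2758 CPM at 72 h of inhibitor against 5108 CPM at 72 h untreated, 1.85-fold lower. The median member had a log2 ratio of -0.97, where the median of all 9346 genes at 10 CPM or more in either library was -0.14. Of the 51, 40 were more than 1.5-fold lower and 0 more than 1.5-fold higher, where 20% of all genes were more than 1.5-fold lower and 7.38% more than 1.5-fold higher. More than 2-fold lower were 24 of the 51, against 7.35% of all genes. Against both untreated libraries, at 0 h and 72 h, 46 of the 51 were lower and 33 were more than 1.5-fold lower than each, a share that 13.4% of all genes reached.

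The size of this difference can be set beside the 2 untreated libraries. Between them no member differed by more than 0.71 on the log2 scale (PSRC1, a microtubule-binding protein). Between 72 h of inhibitor and 72 h untreated, 32 of the 51 members differed by more than that. This limit comes from the members themselves in 2 libraries of different times and is not a replicate spread. The 72 h inhibitor library held the lowest of the 5 levels for 45 of the 51, and the recovery library the highest for 27. The libraries at 6 h of inhibitor and at 0 h and 72 h untreated held the highest level of 12, 7 and 5 members in that order. The matching shares of all genes were not counted, neither for the 0.71 limit nor for the lowest and highest libraries.

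**Figure D1:**
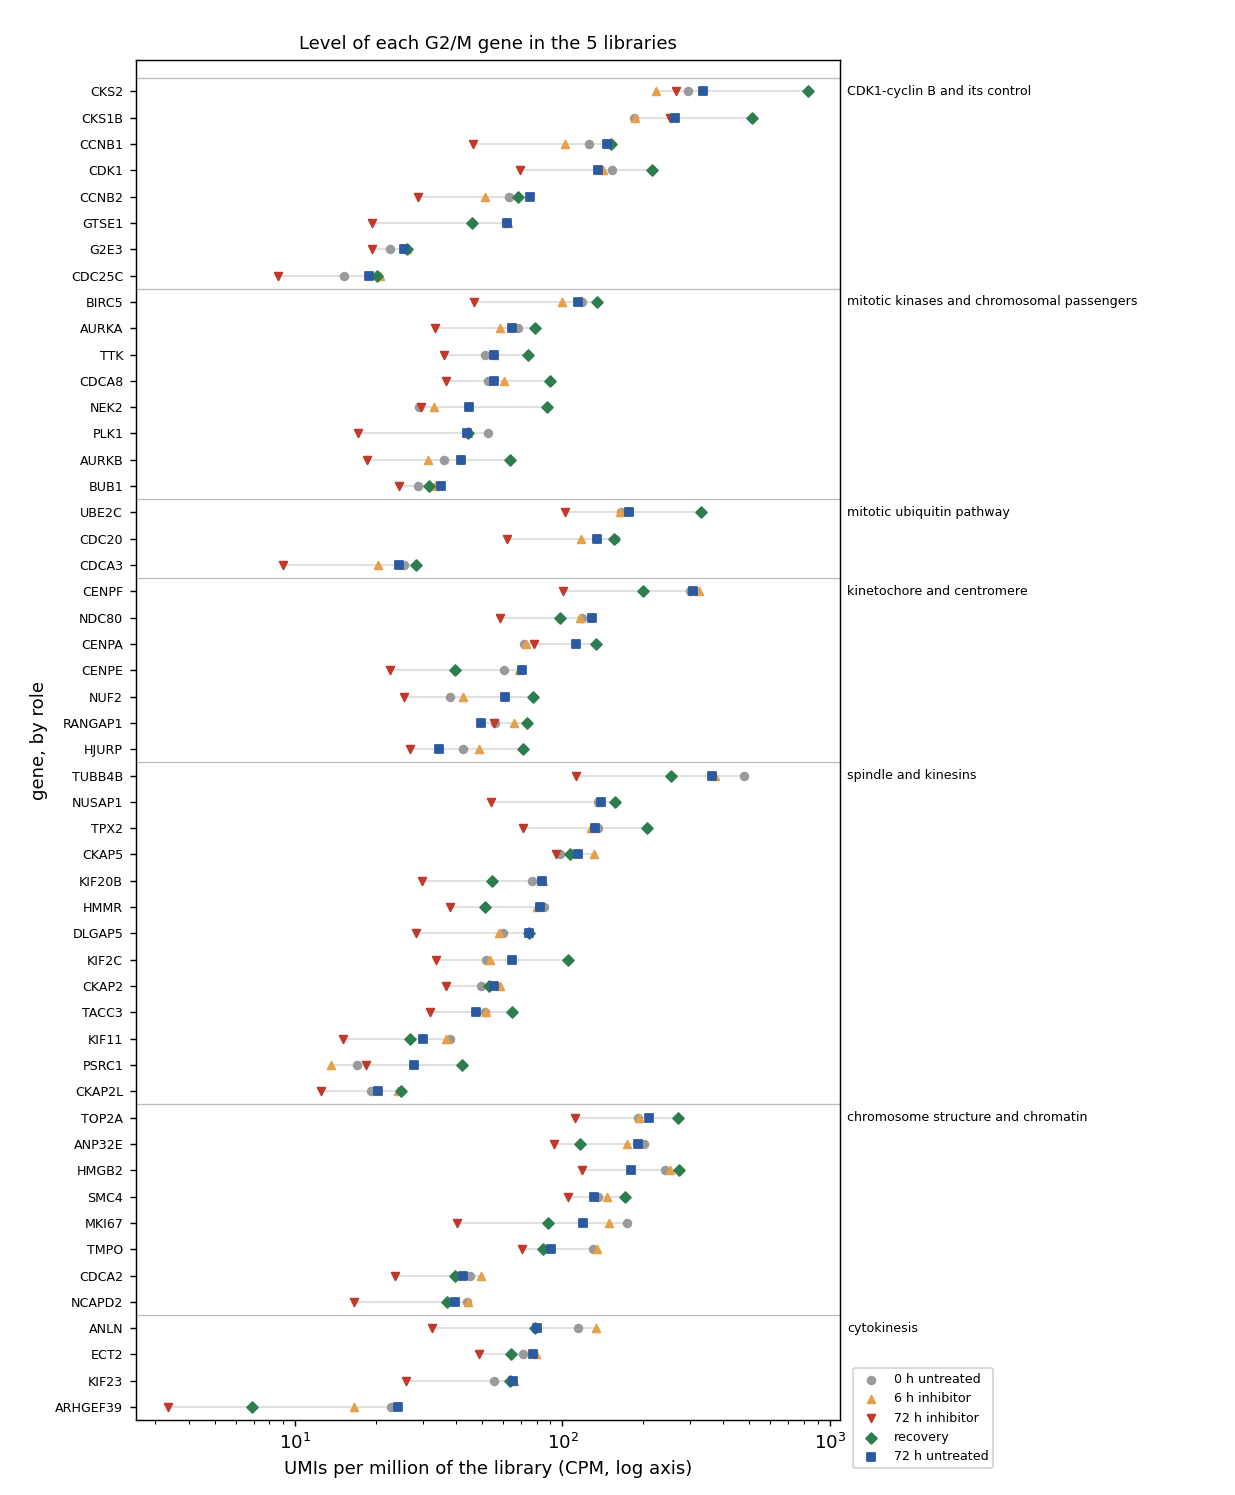
Level of each of the 51 genes in CPM (log axis), grouped by role, with 1 point per library and a grey line over their range. The 72 h inhibitor library (red triangles) is lowest for 45 of the 51 and recovery (green diamonds) highest for 27.

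Among the genes of CDK1-cyclin B and its control, all 8 were lower after 72 h of inhibitor and 5 of them more than 1.5-fold, with a median log2 ratio of -1.05. CCNB1 (ENSG00000134057, chr5:69167010-69178245, plus strand, GRCh38), which encodes cyclin B1, the activator of CDK1 at mitotic entry, stood at 126 CPM at 0 h untreated, 102 after 6 h of inhibitor, 46.2 after 72 h, 152 in recovery and 147 at 72 h untreated. Cells given 72 h of inhibitor were the lowest by far and recovery and 72 h untreated were the highest. Its log2 ratio of 72 h inhibitor over 72 h untreated was -1.67, with an exact 95% interval of -1.72 to -1.62. Intervals here and below cover counting error only.

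CDK1, the mitotic kinase itself, had 153 CPM at 0 h untreated, 142 after 6 h of inhibitor, 69.3 after 72 h, 216 in recovery and 136 at 72 h untreated. Its log2 ratio of 72 h inhibitor over 72 h untreated was -0.97 (-1.01 to -0.92). GTSE1, a microtubule-binding protein that restrains p53 in G2, stood at 61.4, 62.6, 19.4, 45.9 and 62.0 CPM in the same order of libraries, so it was below all others at 72 h of inhibitor and stayed below the untreated libraries in recovery. CDC25C, the phosphatase that activates CDK1, was a low member, at 8.63 CPM at 72 h of inhibitor against 18.8 CPM at 72 h untreated.

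The cyclin-dependent kinase subunits CKS1B and CKS2 stood apart from their partners. CKS1B had 184 CPM at 0 h untreated, 186 after 6 h of inhibitor, 252 after 72 h, 511 in recovery and 263 at 72 h untreated. CKS2 had 294, 224, 265, 828 and 334 CPM in the same order. At 72 h of inhibitor CKS1B lay between the untreated libraries and CKS2 below both, and in recovery both were above every other library. Their log2 ratios of 72 h inhibitor over 72 h untreated were -0.06 (-0.09 to -0.03) for CKS1B and -0.33 (-0.36 to -0.31) for CKS2. With median-of-ratios scaling, trimmed-mean scaling or totals without mitochondrial and ribosomal protein genes CKS1B was higher instead, which left 49 of the 51 lower. CKS1B, HMGB2 and TUBB4B have close relatives or processed copies in the genome, and their counts are less certain for that. G2E3, a ubiquitin ligase named for its G2/M expression, also differed little, with 19.3 CPM at 72 h of inhibitor against 25.4 CPM at 72 h untreated.

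Of the 8 genes of mitotic kinases and chromosomal passengers, all were lower after 72 h of inhibitor and 7 more than 1.5-fold, with a median of -0.79. PLK1 showed the largest difference of the group, with 52.5 CPM at 0 h untreated, 44.3 after 6 h of inhibitor, 17.2 after 72 h, 44.5 in recovery and 44.1 at 72 h untreated (log2 -1.36, -1.45 to -1.27, for 72 h inhibitor over 72 h untreated). It returned in recovery to the level of 72 h untreated cells. BIRC5 (survivin) and AURKB (Aurora B), both of the chromosomal passenger complex, had log2 ratios of -1.30 and -1.17, and CDCA8 (borealin), of the same complex, -0.59. BUB1, a spindle checkpoint kinase, was the least lowered of the group, at 24.5 CPM at 72 h of inhibitor against 35.1 CPM at 72 h untreated (-0.52).

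The 3 genes of the mitotic ubiquitin pathway were all more than 1.5-fold lower after 72 h of inhibitor. UBE2C, the ubiquitin-conjugating enzyme of the APC/C, had 165 CPM at 0 h untreated, 164 after 6 h of inhibitor, 102 after 72 h, 329 in recovery and 178 at 72 h untreated. Recovery was higher than any other library and 72 h of inhibitor lower. CDC20, the mitotic activator of the APC/C, was at 62.2 CPM after 72 h of inhibitor against 135 CPM at 72 h untreated (-1.11), and CDCA3, a trigger of WEE1 destruction, at 9.02 CPM against 24.5 CPM (-1.44).

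Among the 7 kinetochore and centromere genes, 6 were lower after 72 h of inhibitor and 4 more than 1.5-fold. CENPF, a large kinetochore protein, had 299.9 CPM at 0 h untreated, 324 after 6 h of inhibitor, 101 after 72 h, 199.7 in recovery and 307 at 72 h untreated. Its log2 ratio of 72 h inhibitor over 72 h untreated was -1.60 (-1.64 to -1.57). CENPE, the kinesin that moves chromosomes to the spindle equator, had 60.5, 68.6, 22.6, 39.7 and 70.3 CPM in the same order. For both genes 72 h of inhibitor was lowest and recovery lay between it and the 3 other libraries.

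The outer kinetochore partners NDC80 and NUF2 had log2 ratios of -1.14 and -1.26. CENPA (the centromeric histone) and HJURP (its chaperone) differed less, at -0.52 and -0.37. RANGAP1 was the only member that was not lower, at 55.4 CPM after 72 h of inhibitor against 49.6 CPM at 72 h untreated (0.16, 0.10 to 0.22), and it lay just under the 56.0 CPM of 0 h untreated cells.

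All 13 spindle and kinesin genes were lower after 72 h of inhibitor, 11 of them more than 1.5-fold, with a median of -0.95. TUBB4B, a beta-tubulin, had 477 CPM at 0 h untreated, 372 after 6 h of inhibitor, 112 after 72 h, 256 in recovery and 362 at 72 h untreated, so it was highest at 0 h and lowest at 72 h of inhibitor (-1.69, -1.72 to -1.66, against 72 h untreated). The kinesin KIF20B (-1.48), the spindle protein DLGAP5 (-1.41) and the microtubule binder NUSAP1 (-1.37) followed. CKAP5, a microtubule polymerase used in every cell cycle phase, was least lowered, at 94.3 CPM after 72 h of inhibitor against 114 CPM at 72 h untreated (-0.27).

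All 8 genes of chromosome structure and chromatin were lower after 72 h of inhibitor, 6 more than 1.5-fold. MKI67 had 174 CPM at 0 h untreated, 149.6 after 6 h of inhibitor, 40.4 after 72 h, 87.9 in recovery and 119 at 72 h untreated. Its log2 ratio against 72 h untreated was -1.56 (-1.62 to -1.51), and against 0 h untreated -2.11, since the untreated libraries themselves differed by -0.55 at 72 h over 0 h. TOP2A, the topoisomerase that untangles sister chromatids, had 191, 193, 111, 270.0 and 211 CPM in the same order of libraries. SMC4 and NCAPD2, both of condensin, differed in size, with log2 ratios of -0.32 and -1.26.

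The 4 genes grouped under cytokinesis were all more than 1.5-fold lower after 72 h of inhibitor. ARHGEF39 showed the largest ratio of the 51, with 22.8 CPM at 0 h untreated, 16.6 after 6 h of inhibitor, 3.34 after 72 h, 6.91 in recovery and 24.2 at 72 h untreated. Only 285 UMIs were counted at 72 h of inhibitor and 706 in recovery. It was 7.25-fold lower at 72 h of inhibitor than at 72 h untreated (log2 -2.86, -3.04 to -2.68). ANLN (anillin, of the contractile ring), KIF23 (a kinesin of the spindle midzone) and ECT2 (the exchange factor that starts furrowing) had log2 ratios of -1.31, -1.33 and -0.67.

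**Figure D2:**
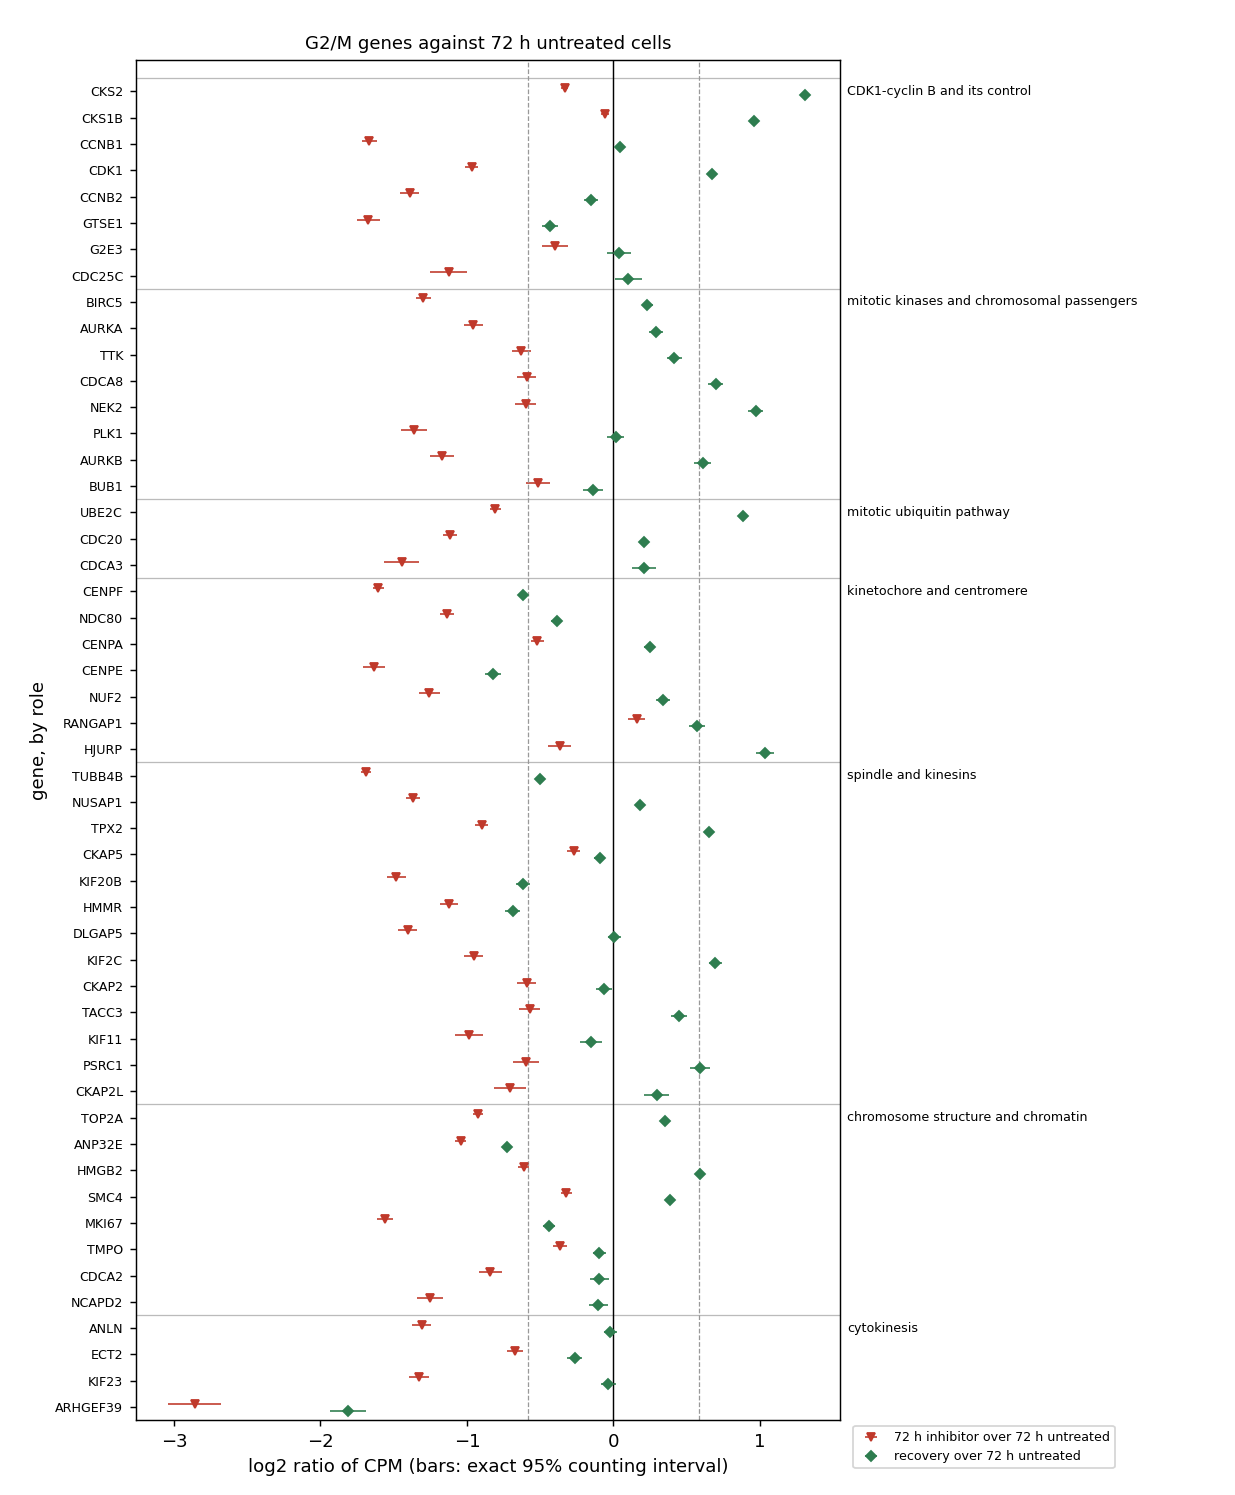
Log2 ratio of CPM of 72 h inhibitor over 72 h untreated (red triangles) and recovery over 72 h untreated (green diamonds) for the 51 genes, with exact 95% counting intervals. Dashed lines mark a 1.5-fold difference. For 50 of 51 the red point is below 0, and the green points lie on both sides of it.

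In recovery, every member at 10 CPM or more in either library was higher than at 72 h of inhibitor. These were 50 of 50, where 50.6% of all genes were lower in recovery. More than 1.5-fold higher were 41 and more than 1.5-fold lower 0, where 14.2% and 14.3% of all genes were. ARHGEF39 was below 10 CPM in both libraries. The median was 1.20 on the log2 scale (all genes -0.01), and the summed level was 6198 CPM in recovery against 2758 CPM at 72 h of inhibitor, 2.25-fold higher. The largest ratios were those of AURKB (1.78), CCNB1 (1.72) and UBE2C (1.69), and the smallest those of CKAP5 (0.18), TMPO (0.27), a protein of the inner nuclear envelope, and ANP32E (0.32), a histone H2A.Z chaperone.

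Against 72 h untreated, the members in recovery did not move as one. Of the 51, 30 were higher and 21 lower (41.2%), where 61.3% of all genes were lower. More than 1.5-fold higher were 12 and more than 1.5-fold lower 6, where 11.7% and 24.9% of all genes were. The median log2 ratio was 0.10 (all genes -0.17). With trimmed-mean scaling, under which the all-gene median shifted by 0.25, 18 were more than 1.5-fold higher and 1 more than 1.5-fold lower, where 20.6% and 15.1% of all genes were. Highest were CKS2 (1.31), HJURP (1.03), NEK2 (0.97), a kinase that separates centrosomes, CKS1B (0.96) and UBE2C (0.89). Lowest were ARHGEF39 (-1.81), CENPE (-0.82), ANP32E (-0.73), HMMR (-0.69), a spindle-pole protein, CENPF (-0.62) and KIF20B (-0.62).

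Most of these genes also differed from the 0 h untreated library. More than 1.5-fold higher in recovery than in each untreated library were 10 of the 51, against 10.3% of all genes, and more than 1.5-fold lower than each were 5, against 18.3%. NEK2 illustrates the first kind, with 29.04 CPM at 0 h untreated, 32.9 after 6 h of inhibitor, 29.6 after 72 h, 87.9 in recovery and 44.8 at 72 h untreated. HMMR illustrates the second, with 85.1, 80.4, 37.9, 51.2 and 82.6 CPM in the same order. NEK2 in recovery exceeded every other library, whereas HMMR in recovery stayed below the untreated ones.

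At 6 h of inhibitor the members were close to 0 h untreated cells. Of the 51, 21 were lower (41.2%) and 30 higher, where 39.8% of all genes were lower. More than 1.5-fold different in either direction were 0, where 0.882% of all genes were more than 1.5-fold lower and 11% more than 1.5-fold higher. The median was 0.02 (all genes 0.10), and the summed level was 4942 CPM at 6 h of inhibitor against 5118 CPM at 0 h untreated. Median-of-ratios scaling moved every gene by -0.12, with which 34 of the 51 were lower, and the members' median stayed -0.08 from that of all genes under both scalings. The largest differences were CDC25C (0.45) and CKAP5 (0.42) on the higher side and ARHGEF39 (-0.46) and CDC20 (-0.43) on the lower side.

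Between the untreated libraries, 30 of the 51 were higher and 21 lower (41.2%) at 72 h than at 0 h, where 41.1% of all genes were lower. The median was 0.08 (all genes 0.10). More than 1.5-fold higher at 72 h were 4, PSRC1 (0.71), NUF2 (0.69), CENPA (0.65) and NEK2 (0.63), and 0 were more than 1.5-fold lower, where 15.9% and 6.20% of all genes were. With trimmed-mean scaling the counts were 0 higher and 5 lower, where 8.64% and 15.5% of all genes were. MKI67 (-0.55), TMPO (-0.52) and ANLN (-0.51) were the lowest. The summed levels, 5108 CPM at 72 h untreated and 5118 CPM at 0 h untreated, were nearly the same.

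Counts per cell show how the members were spread over cells. Kept cells with 5000 UMIs or more were each reduced to a random 5000, so that depth did not differ. The mean cell then held 23.4 member UMIs at 0 h untreated, 22.1 after 6 h of inhibitor, 13.4 after 72 h, 28.8 in recovery and 23.0 at 72 h untreated. The median cell held 17, 16, 6, 22 and 15 in the same order. The 90th percentile was 37 UMIs at 72 h of inhibitor against 57 at 72 h untreated, and the 95th 52 against 69. At the 99th percentile these libraries were closer, with 78 and 88 UMIs, against 105 in recovery.

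**Figure D3:**
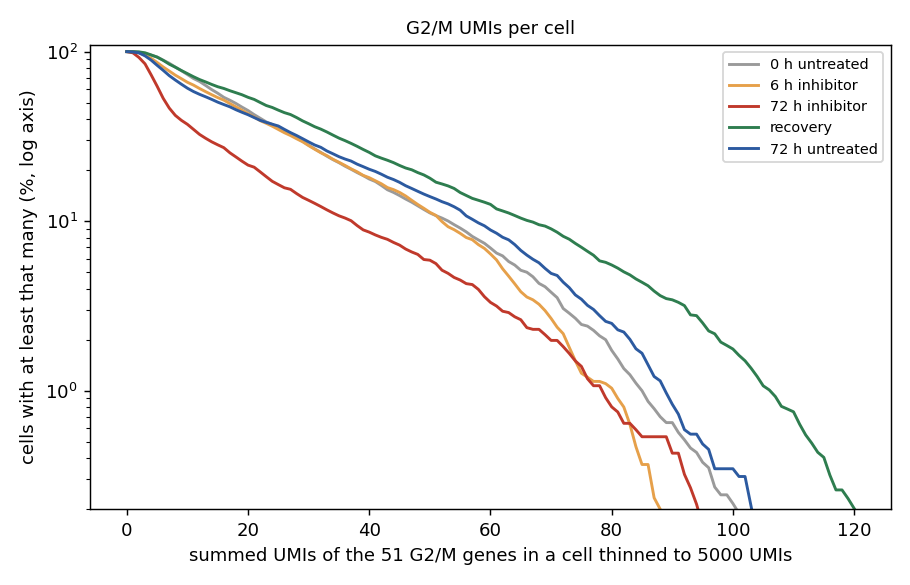
Share of cells (%, log axis) with at least the given number of summed UMIs of the 51 genes, after each cell was thinned to 5000 UMIs, with 1 line per library. The 72 h inhibitor line falls away at low counts, where its median is 6 UMIs against 15 at 72 h untreated, and the recovery line extends furthest.

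Cells were also ranked by 46 other mitosis genes that are not among the 51, such as CCNA2, KIF20A and BUB1B, so that the members themselves did not choose the cells. A cell was called high when it held more than 23 thinned UMIs of these genes, the 90th percentile of 0 h untreated cells. High cells made up 9.46% at 0 h untreated (exact binomial 95% interval 8.54 to 10.4), 9.71% at 6 h of inhibitor (8.68 to 10.8), 4.55% at 72 h of inhibitor (3.65 to 5.60), 16.5% in recovery (15.3 to 17.8) and 14.0% at 72 h untreated (12.8 to 15.3). The lowest share was that of 72 h of inhibitor and the highest that of recovery. The intervals cover the counting of cells within a library and not a difference between conditions. Cells with 23 or 24 such UMIs, next to the limit, made up 1.18% to 2.63% of a library, and the class is a range of a score and not a cell type.

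Within high cells, the members stood at similar levels in every library. Such a cell held a mean of 63.3 member UMIs at 0 h untreated, 59.7 after 6 h of inhibitor, 65.2 after 72 h, 71.3 in recovery and 62.0 at 72 h untreated. The member sum and the other mitosis genes went together within each library (Pearson r over cells 0.851 to 0.920), so the class was not independent of the members' level. Of the 51, 28 were lower and 23 higher in high cells at 72 h of inhibitor than in high cells at 72 h untreated, with a median of -0.07. More than 1.5-fold lower were 3 (ARHGEF39, ANP32E and KIF20B) and more than 1.5-fold higher 3 (HJURP, RANGAP1 and NEK2), where 24.4% and 10.5% of all genes were.

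In the remaining cells the members differed more. The mean was 10.9 member UMIs at 72 h of inhibitor against 16.6 at 72 h untreated, with 19.3 at 0 h untreated, 18.1 after 6 h of inhibitor and 20.4 in recovery. At 72 h of inhibitor 49 of the 51 were lower than in the remaining cells at 72 h untreated, 30 more than 1.5-fold and 0 more than 1.5-fold higher, where 19.6% and 7.53% of all genes were, and the median was -0.70. Cells with 0 thinned UMIs of the other mitosis genes made up 15.3% at 72 h of inhibitor against 4.19% at 72 h untreated, and 1.16% at 0 h untreated, 2.64% after 6 h of inhibitor and 1.94% in recovery. With the member levels of 72 h untreated cells weighted by the 4.55% of high cells seen at 72 h of inhibitor, the mean would be 18.7 UMIs. Weighted instead by the distribution of other mitosis UMIs seen at 72 h of inhibitor, with the highest counts pooled, it would be 12.6. The measured means were 13.4 at 72 h of inhibitor and 23.0 at 72 h untreated. The other mitosis genes were themselves lower at 72 h of inhibitor (median log2 ratio -1.06) and went with the members across cells. A value near the measured one was thus largely built in, and the weighting cannot tell fewer G2/M cells from less of these RNAs per cell.

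**Figure D4:**
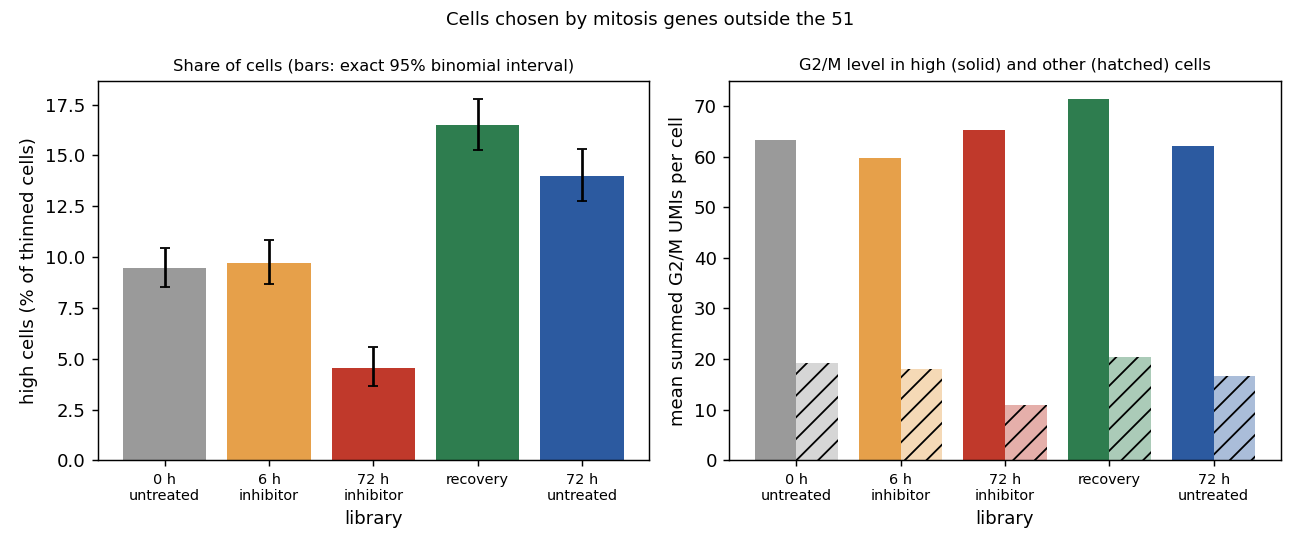
Left, share of thinned cells high in 46 mitosis genes outside the 51, in percent, with exact 95% binomial intervals. Right, mean summed UMIs of the 51 genes per thinned cell in high cells (solid) and in the remaining cells (hatched), for each library. The 72 h inhibitor library has the lowest share, 4.55%, while its high cells hold 65.2 member UMIs, within the range of the other libraries.

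In high cells, recovery and 72 h of inhibitor were also alike in most members, though here too the class was not independent of the members' level. At 72 h of inhibitor the class held 85 cells. More than 1.5-fold higher in recovery were 2 (AURKB and CCNB1) and more than 1.5-fold lower 3 (HMMR, CDCA2 and BUB1), where 13.5% and 18.8% of all genes were. Between high cells of recovery and of 72 h untreated, 4 members were more than 1.5-fold higher (CKS2, HJURP, NEK2 and CKS1B) and 6 more than 1.5-fold lower (ARHGEF39, CENPE, KIF20B, ANP32E, CENPF and HMMR), where 9.46% and 28.9% of all genes were. All 10 had that direction in the whole libraries too. CKS2 in high cells was at 1793 CPM in recovery against 863 CPM at 72 h untreated, and CENPE at 114 CPM against 223 CPM.

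Single genes showed the same spread over cells. A UMI of TOP2A was found in 22.9% of thinned cells at 72 h of inhibitor against 37.5% at 72 h untreated, in 90.6% against 83.4% of high cells, and in 1.75% against 2.48% of cells with 0 UMIs of the other mitosis genes. A UMI of MKI67 was found in 13.01% of cells at 72 h of inhibitor against 31.4% at 72 h untreated. In high cells the shares were 63.5% against 72.3%, and in cells with 0 such UMIs 1.05% against 0.826%. At 72 h of inhibitor there were 85 high cells and 285 cells with 0 UMIs of the other mitosis genes. The latter were fewer still at 72 h untreated. The shares of TOP2A and MKI67 in cells with 0 such UMIs thus rest on very few cells, and no difference is read from them. A UMI of CKS2 was found in 39.6% of the cells with 0 such UMIs at 72 h of inhibitor and in 33.9% at 72 h untreated, and free RNA was not measured. TUBB4B differed most of the 51 in such cells, in percentage points, and was found in 21.8% of them at 72 h of inhibitor against 61.2% at 72 h untreated.

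The members differed in how closely they went with the rest of the set from cell to cell. For each gene the Pearson r of log UMIs in thinned cells with the summed other 50 was taken within each library and averaged over the 5. CENPF (0.66), TOP2A (0.65), UBE2C (0.61), CKS2 (0.60) and TPX2 (0.57), a spindle assembly factor that activates Aurora A, had the highest values. G2E3 (0.15), TMPO (0.17), RANGAP1 (0.19) and ARHGEF39 (0.19) had the lowest. Of all genes outside the set, UBE2S (0.66), the APC/C enzyme that extends ubiquitin chains, PTTG1 (0.48), which encodes securin, STMN1 (0.46), a microtubule-destabilizing protein, DEPDC1 (0.46) and ASPM (0.45), a spindle-pole protein, were most like the set. The values come from the same cells and libraries, and genes with few UMIs have sparse counts.

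The height of recovery over 72 h of inhibitor went with this measure across the 51 genes (Pearson r 0.50, n = 51 genes that share the same libraries), whereas the ratio of 72 h inhibitor over 72 h untreated did not (-0.09). The measure averages over libraries that also enter these ratios, so the values compared are not independent. ARHGEF39 was included, though below 10 CPM in recovery and at 72 h of inhibitor. PTTG1 itself had 422 CPM at 0 h untreated, 304 after 6 h of inhibitor, 189 after 72 h, 713 in recovery and 525 at 72 h untreated, the same order of libraries as CCNB1.

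Across the members, the recovery ratio also went with transcript length, which was examined after the values were known. Longest protein-coding transcripts (GENCODE 29) ran from 613 bases for CKS2 to 12678 for MKI67. For recovery over 72 h untreated the Pearson r with log length was -0.54 over the 51 members and -0.09 over 9005 genes. Of the 17 shortest members, 15 were higher in recovery than at 72 h untreated, with a median of 0.34, and of the 17 longest 5 were, with a median of -0.10. All genes of the same length ranges had medians of -0.12 and -0.20. For recovery over 72 h of inhibitor the r was -0.48 over the 51 members, with ARHGEF39 included, and -0.15 over 8629 genes. For 72 h of inhibitor over 72 h untreated it was -0.18 over the members. At 6 h of inhibitor over 0 h untreated, length of the gene on the chromosome went with the ratio in the members (0.62) and in all genes (0.54) alike. The 72 h untreated library entered several of these ratios, and RNA quality was not measured beyond UMIs per cell and the mitochondrial share, whose median was 2.55% in recovery against 6.17% at 72 h untreated. Its part in the result was not tested.

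**Figure D5:**
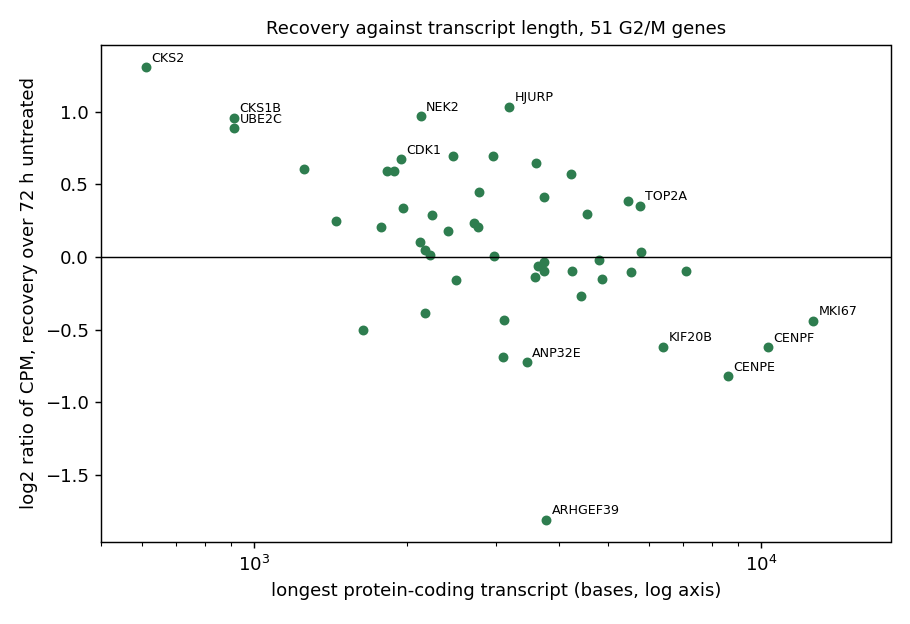
Log2 ratio of CPM of recovery over 72 h untreated for the 51 genes against the length of the longest protein-coding transcript (bases, log axis), with 1 point per gene. Short members such as CKS2, CKS1B and UBE2C lie above 0, while long members such as CENPE, CENPF and MKI67 lie below it.

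Other lists of the pathway were counted at 72 h of inhibitor over 72 h untreated, where, as above, 20% of all genes were more than 1.5-fold lower and 7.38% more than 1.5-fold higher. Of the other 46 mitosis genes, 44 were measured, 42 were lower and 39 more than 1.5-fold lower, with a median of -1.06. Of 43 S phase genes, 41 were measured, 39 were lower and 27 more than 1.5-fold lower, with a median of -0.72. Among 10 transcription factors of the G2/M program, 9 were measured and all 9 were lower, 3 of them more than 1.5-fold, where 61.0% of all genes were lower. FOXM1, which turns on late G2 genes, was at 10.1 CPM at 72 h of inhibitor against 22.4 CPM at 72 h untreated (-1.14) and MYBL2 (B-Myb) at 33.6 CPM against 77.5 CPM (-1.21), while LIN9, LIN37, LIN52 and LIN54 of the MuvB core had log2 ratios of -0.50, -0.24, -0.23 and -0.18. In recovery FOXM1 and MYBL2 remained under 72 h untreated, with log2 ratios of -0.50 and -0.34.

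Genes that act in mitosis but are expressed through the cell cycle differed less. Of 16 APC/C subunits and regulators, 14 were measured, with 7 lower and 7 higher at 72 h of inhibitor and a median of -0.00. FBXO5 (EMI1), an APC/C inhibitor made at the onset of S phase, and the subunit ANAPC15 were the 2 that were more than 1.5-fold lower, against the 20% of all genes. FBXO5 was also higher in recovery, at 75.9 CPM against 29.04 CPM at 72 h untreated. Of 10 cohesin genes 6 were lower and 4 higher, and SMC1A was the 1 that was more than 1.5-fold lower (-0.70), against the same 20%.

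Brakes on entry into mitosis were divided. Of 13 such genes 12 were measured at 72 h of inhibitor over 72 h untreated, with 6 more than 1.5-fold lower and 2 more than 1.5-fold higher, against 20% and 7.38% of all genes. GADD45A, a stress protein that can inhibit CDK1-cyclin B, had 104 CPM at 0 h untreated, 273 after 6 h of inhibitor, 445 after 72 h, 476 in recovery and 197 at 72 h untreated, so it was above both untreated libraries in all 3 others. CDKN1A (p21), another inhibitor of cyclin-dependent kinases, had 8.10, 14.2, 5.31, 40.9 and 12.7 CPM in the same order, lowest at 72 h of inhibitor and highest in recovery. PKMYT1, a kinase that holds CDK1 inactive, was at 5.52 CPM at 72 h of inhibitor against 14.9 CPM at 72 h untreated.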

How the data were processed

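Cells of 5 libraries were captured with a 3′ droplet kit per the labels' protocols. The authors deposited matrices of raw UMI counts per gene and cell, made with Cell Ranger 7.1.0 on GRCh38, according to the submitters' processing notes. Neither the gene annotation's release nor the handling of intronic reads and strand is stated in these sources. A 3′ count is not scaled by transcript length.

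From the deposited counts, cells of 1000 or more detected genes with a mitochondrial share up to 20% were kept and summed per library. Sums were scaled to a total of 1e6 (CPM). A gene was measured in a comparison where either library reached 10 CPM, and called beyond 1.5-fold. Log2 ratios carry exact Clopper-Pearson 95% intervals conditional on both counts; UMIs are taken as molecules, and these intervals hold no variation between cultures. With 1 library per group no test was possible. Cells of at least 5000 UMIs were thinned to 5000 UMIs for values per cell. Doublets were not removed.

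The members and lists were chosen with earlier results of these data known. A rule picked 40 members to be named. For each comparison it took up to 6 members with the largest ratios in each direction present. It also took the 6 lowest and 6 highest levels at 72 h untreated, the extremes of each role, and CDK1, CCNB1, PLK1, MKI67 and TOP2A. Of the 40, CKAP2, CKAP2L and KIF2C are not described in the text. For the others, not every ratio that led to the pick is given. Others named were chosen after their values were seen. Promoter windows came from RefSeq and gene positions and lengths from GENCODE 29. Alternatives covered cell filters, scaling, thinning, the expression minimum, the fold, the untreated library used and the limit for high cells. Simulated data modelled on the 72 h comparison of inhibitor and untreated cells, with 9094 genes, were used to test the computation. In them 200 of 200 changed genes had the right direction and 95.5% of intervals held the true ratio. Of 8894 unchanged genes 0 passed the fold. The simulated counts varied by counting error only, so they cannot show how often 2 cultures differ by more than the fold. Tables were handled with pandas 2.3.3, intervals with scipy 1.17.1, arrays with numpy 2.4.6 and plots with matplotlib 3.10.9, under Python 3.11.15.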

Additional observations from a re-analysis of the deposited data

How the results depend on the processing

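No paired analysis was possible because each group had 1 library. For the same reason no library could be left out of a group. For 72 h of inhibitor over 72 h untreated the count of members more than 1.5-fold lower, 40, ranged from 29 of 36 measured at a 50 CPM minimum to 42 in cells of 20000 UMIs or more with at most 10% mitochondrial UMIs, an alternative chosen after seeing the data; it was 36 against 0 h untreated and 24 at a fold of 2. Of all genes, 17.0%, 20.6%, 22.0% and 7.35% were lower in that order. The members' median log2 ratio stayed between -1.04 and -0.76. For recovery over 72 h of inhibitor the count higher was 31 to 42, where 5.09% (at a fold of 2) to 22.7% of all genes were. The counts of the other comparisons moved with scaling, which shifts every gene alike, and with thinning and cell choice, where the cause was not tested. For 6 h of inhibitor over 0 h untreated, 1 member was lower with trimmed-mean scaling (2.06% of all genes) and 1 with thinned cells (1.04%). Against 72 h untreated 2 were lower and 1 higher, where 10.5% and 8.56% of all genes were. For recovery over 72 h untreated, median-of-ratios scaling gave 3 lower and 13 higher (19.7% and 15.4% of all genes). Trimmed-mean scaling gave 1 lower and 18 higher (15.1% and 20.6%), and thinned cells 3 lower and 15 higher (23.4% and 12.9%). At a fold of 2 the counts were 1 lower and 2 higher (11% and 4.52%). For 72 h over 0 h untreated, 1 was lower without the 5% of cells with most UMIs (6.25% of all genes). Thinned cells gave 1 lower (6.46%). Median-of-ratios scaling gave 3 lower and 2 higher (8.66% and 12.8%), and trimmed-mean scaling 5 lower and 0 higher (15.5% and 8.64%). A 50 CPM minimum gave 2 higher (11.7%), and a fold of 2 gave 0 higher (5.56%). High cells by the 95th percentile made up 4.84% at 0 h untreated, 4.91% after 6 h of inhibitor, 2.36% after 72 h, 11.1% in recovery and 8.46% at 72 h untreated. By the 90th percentile of 72 h untreated cells the shares were 5.59%, 5.67%, 2.52%, 12.1% and 9.29% in that order, so 72 h of inhibitor was lowest and recovery highest under each limit. For 72 h of inhibitor over 72 h untreated the all-gene median shifted by 0.21 under trimmed-mean scaling. Length and the weighting of cell classes were examined after seeing the data. Depth limits ARHGEF39 most, with 285 UMIs at 72 h of inhibitor.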
